A study of Marchantia polymorpha and Arabidopsis thaliana with 40 samples.

Results

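Accessible regions of the Arabidopsis thaliana genome that moved in opposite directions with heat in the eTK mutant and in the wild type Col-0 are described here, 2161 of 110628 regions (1.95%). They fell into 2 classes that were kept apart throughout. In 848 regions heat closed chromatin in eTK and opened it in Col-0, and in 1313 regions heat opened chromatin in eTK and closed it in Col-0. Access was read by ATAC-seq, where Tn5 transposase cuts and tags DNA that it can reach, applied to sorted nuclei of whole seedlings at day 7. The 4 groups, each of 2 libraries, were eTK after 1 h at 37 °C, eTK at 22 °C, Col-0 after 1 h at 37 °C and Col-0 at 22 °C. eTK carries knockouts of hsfa1a, hsfa1b and hsfa1d, and Col-0 carries none of them. The fourth Arabidopsis gene of that group, HSFA1E, is not among the genes that the labels name as knocked out, and all 4 groups grew on medium with sucrose under continuous light. The series title sets the part of heat shock factors in heat-induced chromatin dynamics at its centre, so the question behind the comparison was how the heat response of accessibility differed without these factors.

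Members were chosen by their read counts in all 8 libraries. CPM, the count per 1e6 counts, was taken over the library's total in all regions. The heat response of a genotype was the log2 ratio of its mean heat CPM to its mean control CPM, with 0.5 CPM added to both, minus the median of that ratio over all regions. Members of the first class had a response of at most -0.3 in eTK and at least 1 in Col-0, and members of the second had at least 0.3 in eTK and at most -0.8 in Col-0. All had a mean count of at least 50 per library, as had 109575 of all regions (99.0%). "Opened" and "closed" refer below to the sign of this centred ratio. The median subtracted was 0.02 in eTK and -0.65 in Col-0. Without it the thresholds correspond to -0.28 and 0.35 for the first class and 0.32 and -1.45 for the second, so every member also moved in opposite directions in plain CPM. Since all 8 libraries chose the members, their heat responses are given as a description, with no test.

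Plants meet heat with heat shock transcription factors, which bind heat shock elements in DNA as trimers. The HSFA1 proteins are the master activators among them. At rest they are held inactive by HSP70 and HSP90 chaperones, and on heat they are released and switch on chaperone genes and further heat shock factors such as HSFA2. Arabidopsis chromosomes have gene-rich arms and a compact pericentromeric heterochromatin, dense in transposons and satellite repeats, where DNA and histones are heavily methylated and access is normally low. ATAC-seq counts measure how often the transposase reached a region in a population of nuclei, so fewer nuclei with open chromatin and less access per nucleus cannot be told apart here.

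The libraries differed in more than their labels. Totals over the regions were 33.2 to 35.5 M counts in the 4 eTK libraries, 19.6 and 22.3 M in heated Col-0 and 34 to 38.7 M in control Col-0. The heated Col-0 libraries stood apart in how counts were spread: the top decile of regions by mean count took 44.2% and 43.2% of their counts, against 32.7% to 33.9% in the eTK libraries and 35.1% to 35.2% in control Col-0. They also had an excess of even counts (0.567 and 0.558 of regions, against 0.503 to 0.514 in the other 6). The median CPM over regions of mean count at least 50 was 5.90 to 6.03 in eTK and 3.68 to 3.81 in heated Col-0, against 5.68 to 5.69 in control Col-0. What these differences contribute to the responses was not tested. Whether replicates were grown apart is not stated, so the spread given is that between these libraries, and it may be technical. Whether the knocked-out genes lost reads was not checked, because gene positions were not used here.

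Opposite responses were the exception among regions that opened with heat in Col-0 and more frequent among those that closed. Of the 24803 regions with a Col-0 response of at least 1, 848 (3.42%) were at or below -0.3 in eTK, 3396 (13.7%) were at or above 0.3, and 20559 (82.9%) lay between. Of the 6779 regions with a Col-0 response of at most -0.8, 1313 (19.4%) were at or above 0.3 in eTK and 276 (4.07%) at or below -0.3. Over all regions of mean count at least 50, the same eTK ranges held 8.71% (at least 0.3) and 7.53% (at most -0.3). Across these regions, which are not independent replicates, the responses of both genotypes had a Pearson's r of 0.10.

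The share of members ran differently with the size of the Col-0 response in each class. Among regions with a Col-0 response of 1 to 1.25, 7.06% belonged to the class closed in eTK, then 3.55% at 1.25 to 1.5, 1.07% at 1.5 to 2 and 0.852% at 2 to 4. The median eTK response in the same ranges went up, at -0.02, 0.03, 0.13 and 0.23. Thus these members sat at the weak end of Col-0 opening, with a median Col-0 response of 1.21 against 1.44 for all 24803 opened regions. On the closed side the share grew instead, being 14.6% at a Col-0 response of -1 to -0.8, 23.5% at -1.25 to -1, 26.2% at -1.5 to -1.25 and 34.7% below -1.5.

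**Figure D1:**
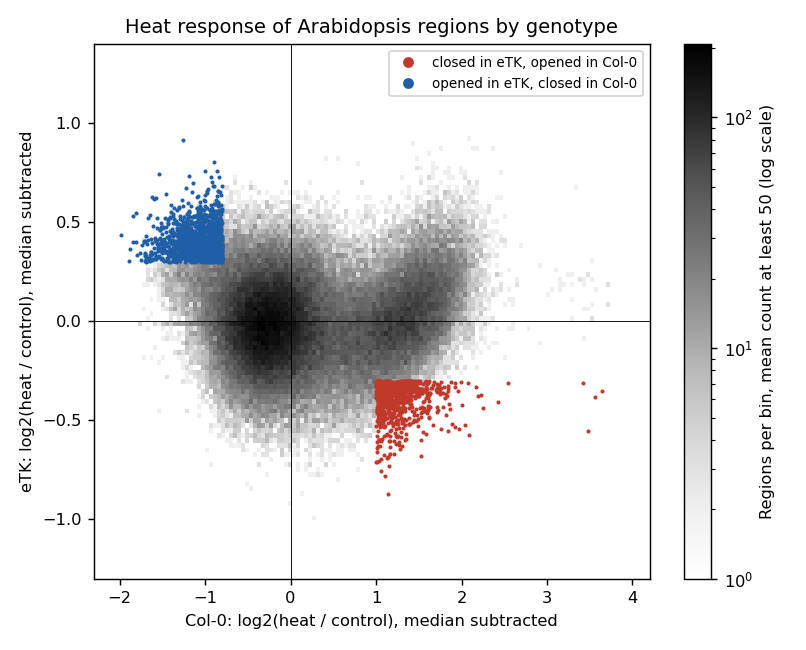
Heat response of regions with a mean count of at least 50, in eTK (vertical axis) against Col-0 (horizontal axis), each as the median-centred log2 ratio of heat to control CPM; grey shading counts regions per bin on a log scale, red points are the 848 members closed in eTK and opened in Col-0, and blue points the 1313 members opened in eTK and closed in Col-0. The members are the outer corners of a cloud whose Col-0 values spread from -2.1 to 3.99 and whose eTK values spread from -1.16 to 1.31.

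In the class closed in eTK and opened in Col-0, the median response was -0.36 in eTK, with a lowest value of -0.87, and 1.21 in Col-0, with a highest value of 3.64. These medians correspond to a centred ratio of 0.777 in eTK and 2.31 in Col-0. In all 848 members the Col-0 response was the larger of both in absolute size, which the unequal thresholds largely set. The eTK response reached a size of 0.5 in 100 members, and the Col-0 response reached 2 in 14. The median CPM of the class was 6.27 and 6.36 in heated eTK, 8.34 and 8.2 in control eTK, 14.4 and 13.7 in heated Col-0 and 9.05 and 8.83 in control Col-0. Heated Col-0 had the highest mean CPM of the 4 groups in 843 members, and heated eTK had the lowest in 829. Over all regions of mean count at least 50 these shares were 28.0% and 13.4%. The rule itself set heat above control in Col-0 and below control in eTK, so this order was partly fixed.

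The member with the largest difference outside the chromosome 2 stretch described further on was on chromosome 3 from 842633 to 842948. It held 2.56 and 3.07 CPM in heated eTK, against 3.5 and 3.85 CPM in control eTK, and 29.4 and 28.9 CPM in heated Col-0, against 3.49 and 2.94 CPM in control Col-0. The 2 heated Col-0 libraries lay far above the other 6. The heated eTK libraries lay below the control eTK libraries without overlap, as in 22.7% of all regions. Its responses were -0.35 in eTK and 3.64 in Col-0, a 9.06-fold ratio of mean CPM in Col-0. Its neighbour 411 bases upstream in the coordinates, from 841532 to 842222, responded by -0.19 in eTK and 2.80 in Col-0, and the next region downstream, from 843190 to 843336, by 0.30 and 1.74.

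A wide member on chromosome 5 from 22688358 to 22689478 (1120 bases) combined a large response with high counts. It held 24.9 and 27.7 CPM in heated eTK, 34.6 and 34.4 CPM in control eTK, 128 and 123 CPM in heated Col-0 and 35.6 and 36.9 CPM in control Col-0. The control libraries of both genotypes were close to each other, heated Col-0 stood above them and heated eTK below. Its responses were -0.41 in eTK and 2.42 in Col-0, and -0.36 and 1.44 with an offset in each library that depends on level (loess). All 4 nearest regions, 2 on each side, had Col-0 responses of 1.79 to 2.51, and eTK responses between -0.09 and 0.18. As none of them is a member, the rule itself kept their eTK responses above -0.3.

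The other members with the largest differences were shorter. On chromosome 3 from 8668813 to 8669095, heated eTK had 9.72 and 8.59 CPM and control eTK 11.8 and 10.8 CPM, while heated Col-0 had 44.2 and 35.4 CPM and control Col-0 10.2 and 10.4 CPM. The region beside it from 8668474 to 8668552 was itself a member, with responses of -0.37 in eTK and 1.59 in Col-0. On chromosome 2 from 13316113 to 13316251, heated eTK had 2.62 and 2.06 CPM against 3.32 and 3.25 CPM in control eTK, and heated Col-0 had 8.68 and 9.78 CPM against 2.46 and 2.94 CPM in control Col-0. On chromosome 3 from 2483595 to 2483707 the values were 1.63 and 1.83 CPM in heated eTK, 2.73 and 2.8 CPM in control eTK, 7.15 and 5.38 CPM in heated Col-0 and 2.33 and 1.65 CPM in control Col-0. None of these 3 had overlapping heat and control libraries within a genotype, as in 819 of the 848 members and 5.04% of all regions. The same libraries chose the members.

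Members with the highest mean counts had weaker responses than those. The highest was on chromosome 4 from 9295365 to 9296307, with 60.2 and 61 CPM in heated eTK, 73.2 and 75 CPM in control eTK, 143 and 129 CPM in heated Col-0 and 84.5 and 86.8 CPM in control Col-0. As means this was 60.6 ± 0.51 CPM in heated and 74.1 ± 1.3 CPM in control eTK, and 136 ± 10 CPM in heated and 85.6 ± 1.6 CPM in control Col-0 (SD, n = 2 each). Both differences exceeded the spread within groups, but the same libraries chose the member. Its responses were -0.31 in eTK and 1.31 in Col-0. Next came chromosome 1 from 16704895 to 16705931 (-0.31 in eTK and 1.11 in Col-0), chromosome 3 from 16932674 to 16933647 (-0.33 and 1.03) and chromosome 5 from 553755 to 555195 (-0.50 and 1.25). With loess offsets the Col-0 response of all 4 came close to 0, at 0.13 for the chromosome 4 region, -0.01 for that on chromosome 1, -0.03 for that on chromosome 3 and 0.19 for that on chromosome 5.

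At the edge of the class, members and non-members were nearly alike. The members nearest to a threshold were chromosome 2 from 9736974 to 9737150 (-0.30 in eTK and 1.01 in Col-0) and, on chromosome 5, the one from 22278439 to 22278724 (-0.30 and 1.05). The nearest regions outside, on chromosome 4 from 14642164 to 14642255 (-0.30 and 1.35) and from 13423716 to 13424114 (-0.30 and 1.20), missed the eTK threshold only beyond the second decimal.

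**Figure D2:**
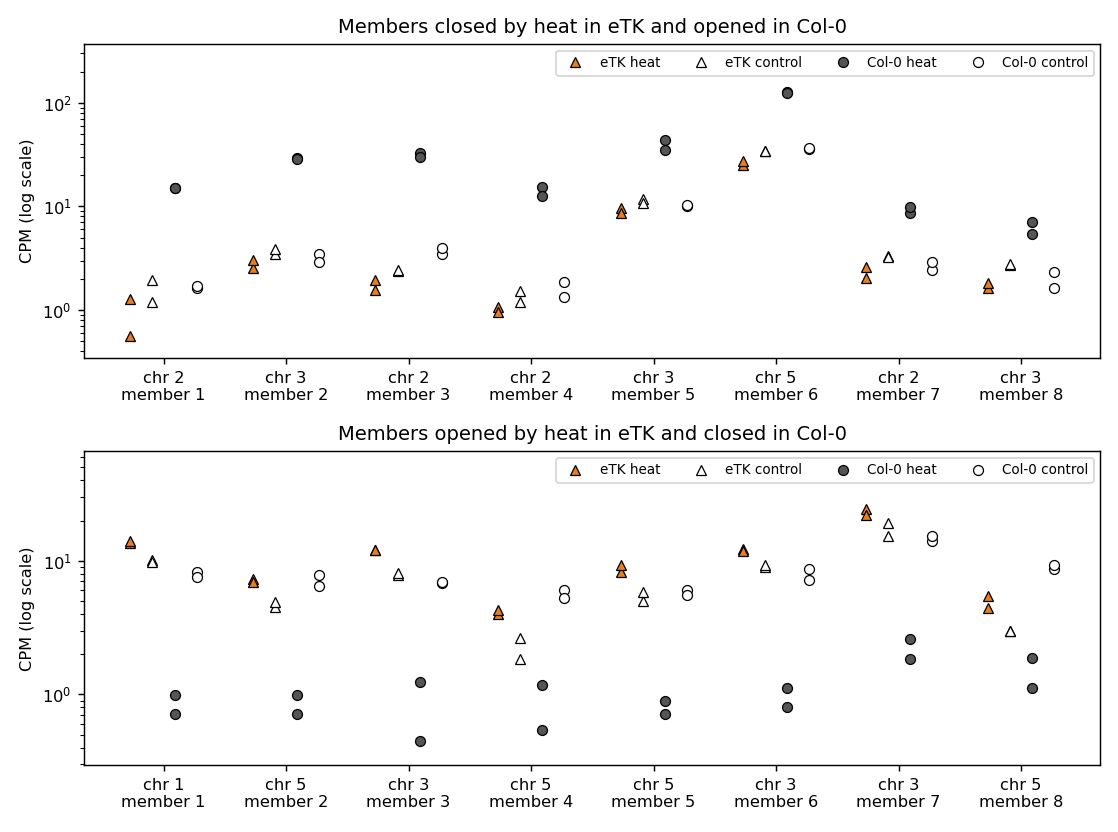
CPM (log scale) of the 8 members with the largest difference between genotypes in each class, numbered from the largest; each symbol is 1 library, with orange triangles for heated eTK, open triangles for control eTK, dark circles for heated Col-0 and open circles for control Col-0. In the upper panel heated Col-0 lies above all other libraries at every member and in the lower panel it lies below them all.

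The class opened in eTK and closed in Col-0 had a median response of 0.39 in eTK, with a highest value of 0.91, and of -1.05 in Col-0, with a lowest value of -1.99. As centred ratios the medians were 1.31 in eTK and 0.483 in Col-0. Again the Col-0 response was the larger in absolute size in all 1313 members, which the unequal thresholds largely set. The eTK response reached a size of 0.5 in 179 members and the Col-0 response reached a size of 1.5 in 90. The median CPM of the class was 9.18 and 8.7 in heated eTK, 6.37 and 6.74 in control eTK, 1.38 and 1.48 in heated Col-0 and 5.92 and 6.15 in control Col-0. Heated eTK had the highest mean CPM of the 4 groups in 1161 members and control Col-0 in 152, and heated Col-0 had the lowest in 1261. Over all regions of mean count at least 50 these shares were 33.1%, 12.5% and 65.9%. Here too the rule partly fixed the order.

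The largest difference was on chromosome 1 from 15064777 to 15065120, where heated eTK had 13.5 and 14 CPM, control eTK 10.1 and 9.73 CPM, heated Col-0 0.715 and 0.987 CPM and control Col-0 8.25 and 7.51 CPM. Means were 13.8 ± 0.36 CPM in heated and 9.92 ± 0.27 CPM in control eTK, and 0.851 ± 0.19 CPM in heated and 7.88 ± 0.52 CPM in control Col-0 (SD, n = 2 each). The heated Col-0 libraries held 14 and 22 counts there, against 319 and 255 in control Col-0, so the low values rest on few reads. Responses were 0.43 in eTK and -1.99 in Col-0. Of the 2 nearest regions on each side, 3 were members too, with Col-0 responses of -1.53, -1.34 and -1.56.

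On chromosome 3 from 13939145 to 13939575, heated eTK had 12 and 12.1 CPM and control eTK 7.78 and 8.17 CPM, while heated Col-0 had 1.23 and 0.449 CPM and control Col-0 6.77 and 6.92 CPM. Its neighbour 49 bases on, from 13939624 to 13939813, was a member with responses of 0.58 in eTK and -1.25 in Col-0. Nearby on the same chromosome, the member from 13966560 to 13966990 held 24.6 and 21.9 CPM in heated eTK, 15.4 and 19.1 CPM in control eTK, 1.84 and 2.6 CPM in heated Col-0 and 14.1 and 15.4 CPM in control Col-0. The member from 13970333 to 13970652 had responses of 0.37 in eTK and -1.88 in Col-0.

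On chromosome 5, 4 of the 8 members with the largest differences lay between 11081639 and 11991498. The one with the largest eTK response among them, from 11343895 to 11344119, had 3.97 and 4.31 CPM in heated eTK, 1.85 and 2.63 CPM in control eTK, 1.17 and 0.538 CPM in heated Col-0 and 6.08 and 5.3 CPM in control Col-0. Here control Col-0 was above heated eTK, unlike in most members, with responses of 0.74 in eTK and -1.54 in Col-0. The member from 11143764 to 11144069 had the same order, with 5.42 and 4.45 CPM in heated eTK, 3 and 2.98 CPM in control eTK, 1.12 and 1.88 CPM in heated Col-0 and 8.74 and 9.33 CPM in control Col-0. The member from 11081639 to 11081871 responded by 0.53 in eTK and -1.85 in Col-0, and that from 11991340 to 11991498 by 0.63 and -1.62.

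The members with the highest mean counts showed the pattern at high depth. On chromosome 3 from 15716971 to 15717704 the means were 82.1 ± 1.6 CPM in heated and 63.2 ± 0.084 CPM in control eTK, and 18.1 ± 1.1 CPM in heated and 50.8 ± 1.1 CPM in control Col-0 (SD, n = 2 each). The differences within both genotypes exceeded these SDs, each of only 2 libraries, but the same libraries chose the member. Its responses of 0.36 in eTK and -0.81 in Col-0 were close to the thresholds. Its libraries held 2693 and 2956 counts in heated eTK, 2153 and 2116 in control eTK, 340 and 421 in heated Col-0 and 1994 and 1698 in control Col-0. The next were on chromosome 2 from 3087859 to 3088981 (0.36 in eTK and -1.10 in Col-0) and from 3566251 to 3567656 (0.34 and -0.93), and on chromosome 5 from 12012199 to 12012949 (0.49 and -0.90). With loess offsets the Col-0 response of these 4 was larger in size, between -1.91 and -1.67. Nearest to a threshold inside were chromosome 1 from 14922476 to 14922578 (0.30 and -1.16) and chromosome 4 from 3831785 to 3831962 (0.30 and -1.24), and outside, chromosome 5 from 12931214 to 12931465 (0.30 and -0.99) and chromosome 2 from 4644011 to 4644134 (0.30 and -1.13).

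At 22 °C the genotypes were close at the members, and after heat they were far apart. Given as the median-centred log2 ratio of eTK to Col-0, the class closed in eTK had a median of -1.74 after heat (quartiles -1.92 and -1.57) and of -0.13 at 22 °C (quartiles -0.25 and -0.00). eTK was above Col-0 in 0 of its 848 members after heat and in 209 (24.6%) at 22 °C. The class opened in eTK had a median of 1.64 after heat (quartiles 1.38 and 1.86) and of 0.17 at 22 °C (quartiles -0.04 and 0.31), with eTK above Col-0 in 1257 of 1313 members (95.7%) after heat and in 942 (71.7%) at 22 °C. All regions of mean count at least 50 within 2 Mb of a centromere centre, where most of that class lay, had medians of 0.90 after heat and 0.21 at 22 °C, with eTK above Col-0 in 83.3% and 78.6%. Over the whole genome eTK was above Col-0 in 50.4% of such regions after heat and in 50.3% at 22 °C. These ratios use the libraries that chose the members and are descriptive only.

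The classes occupied different parts of the chromosomes, a property the rule did not use. Positions were compared with approximate textbook centres of the 5 centromeres on the standard assembly, since the build of the files was not given in the sources used here. Of the class opened in eTK and closed in Col-0, 1283 of 1313 members (97.7%) lay within 2 Mb of a centre, with a median distance of 0.501 Mb. The class closed in eTK and opened in Col-0 had 23 of 848 (2.71%) there and a median distance of 8.02 Mb. Among all regions of mean count at least 50 the share was 14.3% and the median distance 6.22 Mb. Regions chosen by the Col-0 response alone already differed in position. Of the 24803 regions opened in Col-0, 721 (2.91%) lay within 2 Mb, a share near that of the members, and of the 6779 closed in Col-0, 4513 (66.6%) did. No opened-in-Col-0 member lay within 10 kb of a closed-in-Col-0 member, the smallest distance between them being 11.9 kb.

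Distance graded both classes. The class closed in Col-0 made up 23.8% of the regions up to 0.5 Mb from a centre, 11.8% from 0.5 to 1 Mb, 3.65% from 1 to 1.5 Mb, 0.64% from 1.5 to 2 Mb and 0.13% from 2 to 3 Mb. The class opened in Col-0 made up 0.109% up to 0.5 Mb, 0.422% from 2 to 3 Mb and 1.12% beyond 12 Mb. All regions together followed the same gradient, with median responses of 0.28 in eTK and -0.78 in Col-0 up to 0.5 Mb, and of -0.01 in eTK and 0.68 in Col-0 beyond 12 Mb. Near the centromeres the members were therefore the far end of a shift shared by their surroundings, while on the distal arms the median eTK response was near 0 and only the Col-0 response was displaced.

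**Figure D3:**
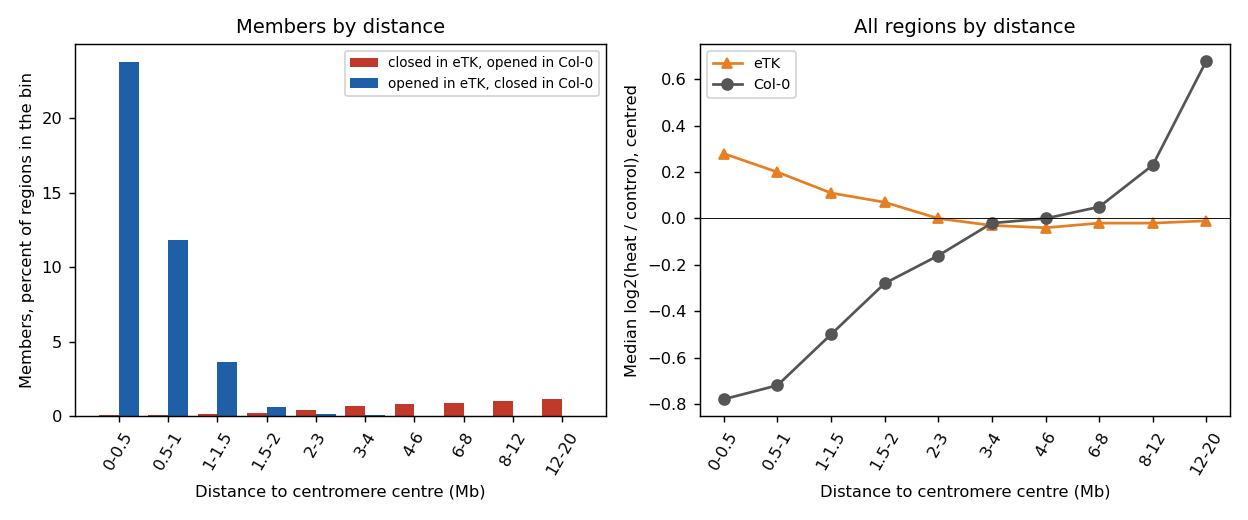
Left, members of each class as a percent of all regions of mean count at least 50 in bins of distance to the nearest centromere centre (Mb), red for the class closed in eTK and opened in Col-0 and blue for the class opened in eTK and closed in Col-0. Right, the median centred heat response of all regions in the same bins, triangles for eTK and circles for Col-0. The blue share falls from 23.8% up to 0.5 Mb to 0.64% from 1.5 to 2 Mb. In the latter bin the medians are 0.07 in eTK and -0.28 in Col-0, and beyond 12 Mb they are -0.01 and 0.68.

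Within 2 Mb of a centre, 28.4% of the 4513 regions that closed in Col-0 (response at most -0.8) were at or above 0.3 in eTK, beside 21.5% of all 15689 regions there. Beyond 2 Mb, 30 of 2266 such regions (1.32%) were, beside 6.58% of all 93886 regions, and 268 (11.8%) were instead at or below -0.3 in eTK, beside 8.54% of all. Arm regions that closed in Col-0 thus seldom opened in eTK. For regions that opened in Col-0 (response at least 1) the share at or below -0.3 in eTK was 3.19% within and 3.43% beyond 2 Mb, beside 1.54% and 8.54% of all regions.

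By chromosome, the class closed in eTK and opened in Col-0 followed the table as a whole, with 233 members on chromosome 1, 138 on chromosome 2, 174 on chromosome 3, 129 on chromosome 4 and 174 on chromosome 5. Its share per chromosome was 15.2% to 27.5%, where all regions of mean count at least 50 had 15.1% to 25.8%. The other class was weighted towards chromosomes 3 and 5, with 399 (30.4%) and 332 (25.3%) of its members, against 19.7% and 22.0% of all regions. Within 2 Mb of the centre it made up 11.9% of regions on chromosome 5 and 10.5% on chromosome 3, against 5.21% to 6.72% on the others.

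Some members opened in eTK and closed in Col-0 lay side by side. The next region in the table belonged to the same class after 327 of 1313 members (24.9%). The class made up 1.19% of all regions, 23.8% up to 0.5 Mb from a centre, where 653 of its members lay, and 11.8% from 0.5 to 1 Mb, where 440 lay. Of the 986 runs of this class, 764 held 1 member. The longest runs held 7 members without a break. One ran on chromosome 5 from 11335354 to 11340379, 5.03 kb, and its summed level was 68.3 and 68.7 CPM in heated eTK, 45.6 and 49.2 CPM in control eTK, 8.63 and 10.4 CPM in heated Col-0 and 44.8 and 48.3 CPM in control Col-0. In that run the controls of both genotypes were level, and heat separated them. Another followed from 11343082 to 11347254, with 57.9 and 53.1 CPM in heated eTK, 37.5 and 39.5 CPM in control eTK, 12.2 and 9.06 CPM in heated Col-0 and 45.8 and 46.2 CPM in control Col-0. Chromosome 5 held a further run of 7 from 12012199 to 12019135, and chromosome 3 held one from 13998958 to 14005207. In the chromosome 3 run the sum was 107 and 97.5 CPM in heated eTK, 72.9 and 76.3 CPM in control eTK, 10.3 and 13.9 CPM in heated Col-0 and 58 and 61.7 CPM in control Col-0.

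Members closed in eTK and opened in Col-0 were single more often, with 799 of 823 runs holding 1 member. Their longest run held 3 members, on chromosome 2 from 8938926 to 8941086. That run summed to 22.2 and 23.1 CPM in heated eTK, 31.8 and 28.7 CPM in control eTK, 53.4 and 48.8 CPM in heated Col-0 and 33.4 and 33.3 CPM in control Col-0. The regions flanking members of this class within 2000 bases, 1503 non-members, had a median response of -0.07 in eTK and 0.96 in Col-0, with 36.9% above 0 in eTK and 85.1% above 0 in Col-0, against 50.1% of all regions of mean count at least 50 in either genotype. The 1505 non-members flanking the other class had medians of 0.23 in eTK and -0.74 in Col-0, with 92.8% above 0 in eTK and 1.59% above 0 in Col-0. Both flanking sets leave out members, so regions that met the rule were removed from them and their medians are partly set by it.

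Both classes were somewhat wider than the table as a whole. The median width, taken as end minus start, was 203 bases for the class closed in eTK and opened in Col-0 and 263 bases for the other, against 181 bases for all regions of mean count at least 50. Those widths were below the 254 bases of all regions opened in Col-0 and near the 265 bases of all regions closed in Col-0. Starting levels differed more between the classes. In control Col-0 the median was 41.5 CPM per kb of region in the class opened in Col-0 and 23.7 CPM per kb in the class closed in Col-0, against 32.5 CPM per kb over all regions of mean count at least 50. Such regions within 2 Mb of a centromere centre had a median of 26.3 CPM per kb (quartiles 21.3 and 33.2), and those beyond 2 Mb had 33.4. The low level of the class closed in Col-0 was thus mostly shared by its surroundings. Control Col-0 also entered the rule.

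The share of members also changed with mean count. The class closed in eTK and opened in Col-0 made up 0.319% of the decile of regions with the lowest mean counts and 1.3% of the decile with the highest, while the other class made up 1.12% and 0.42% of the same deciles, with a peak of 1.77% in decile 7. The median Col-0 response over all regions was 1.00 in the highest decile and -0.03 in the lowest, where eTK had -0.05 and 0.09. A level-dependent change of the heated Col-0 libraries thus ran alongside the class opened in Col-0. With loess offsets 426 of its 848 members (50.2%) still met the rule and 574 regions did in all, and the other class kept 1054 of 1313 (80.3%). That alternative was chosen after seeing the data.

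**Figure D4:**
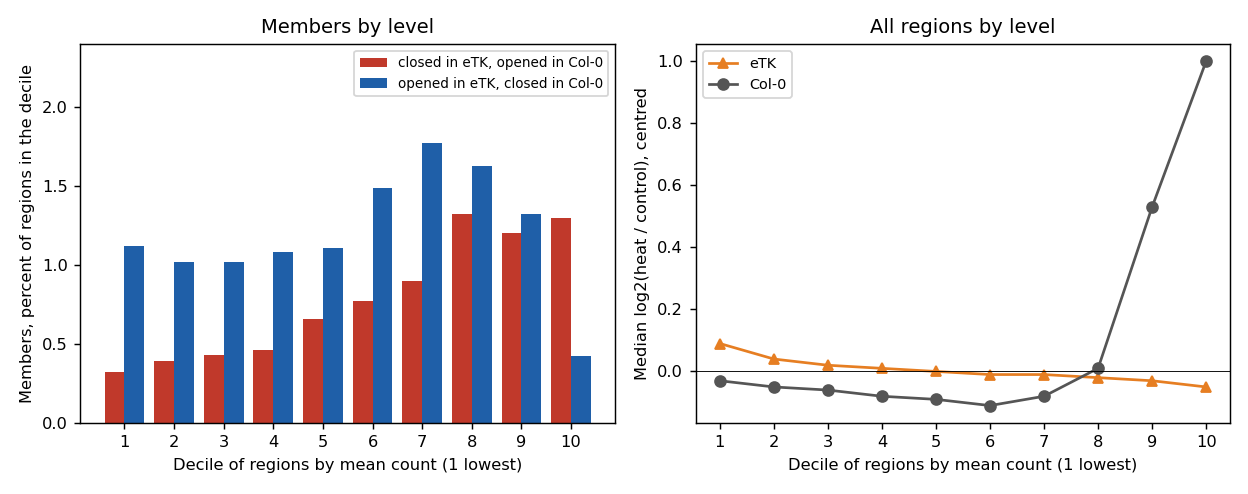
Left, members of each class as a percent of regions in deciles of mean count, red for the class closed in eTK and opened in Col-0 and blue for the class opened in eTK and closed in Col-0. Right, the median centred heat response of all regions in the same deciles, triangles for eTK and circles for Col-0; the Col-0 median is -0.11 to 0.01 in deciles 1 to 8 and 0.53 and 1.00 in the highest 2.

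As a share of each library's counts, the class opened in eTK and closed in Col-0 took 1.48% and 1.41% in heated eTK, 1.04% and 1.09% in control eTK, 0.233% and 0.247% in heated Col-0 and 0.963% and 0.985% in control Col-0. All regions within 2 Mb of a centre together took 14.6% and 13.7% in heated eTK, 12.7% and 12.8% in control eTK, 6.75% and 6.69% in heated Col-0 and 11.5% and 11.6% in control Col-0. The class closed in eTK and opened in Col-0 took 0.705% and 0.718% in heated eTK, 0.942% and 0.916% in control eTK, 1.62% and 1.56% in heated Col-0 and 1.01% and 1.01% in control Col-0. In both classes no heat library overlapped a control library of its genotype. The same libraries chose the members, so the rule largely set this separation.

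**Figure D5:**
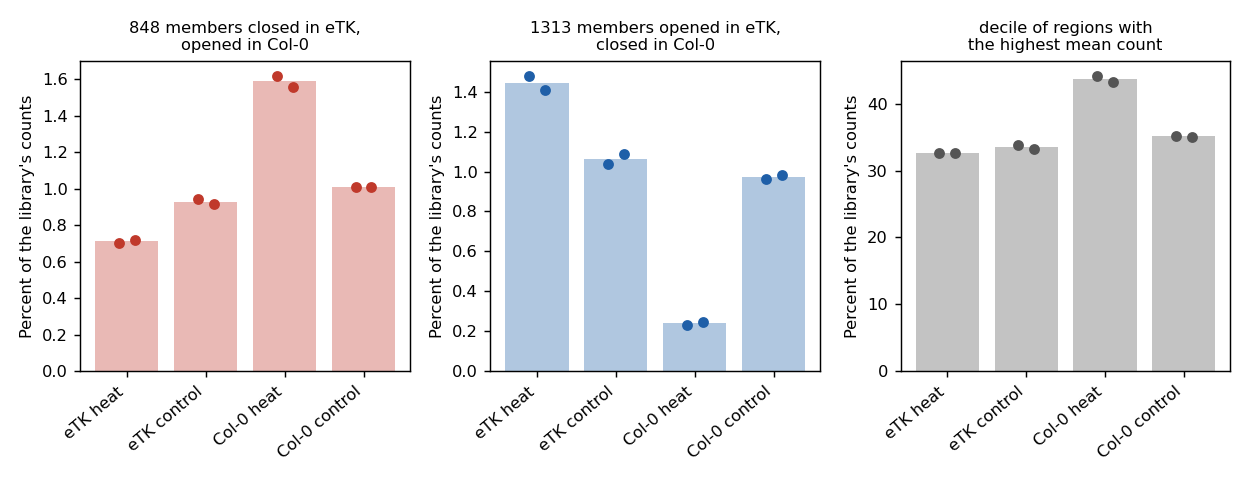
Percent of a library's counts that fell in the 848 members closed in eTK and opened in Col-0 (left), the 1313 members opened in eTK and closed in Col-0 (middle) and the decile of all regions with the highest mean count (right); points are the 2 libraries of a group and bars their mean. Heated Col-0 is highest on the left and lowest in the middle, and it also has the highest share in the top decile, 44.2% and 43.2%.

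Some of the members lay in or near special sequence, judged by position alone. A stretch of chromosome 2 from 3.2 to 3.6 Mb covers the known insertion of mitochondrial DNA near the centromere, where reads from mitochondria or from near-identical copies cannot be told apart from nuclear ones, and how such reads were counted was not given in the sources used here. It held 269 regions of mean count at least 50, of which 147 had a Col-0 response of at least 3 and 39 of at most -0.8. Which of them lie in the insertion itself was not tested. Members there numbered 22 opened in eTK and closed in Col-0 and 3 closed in eTK and opened in Col-0, and those 3 were among the largest differences of their class. From 3306604 to 3306724, heated eTK had 1.29 and 0.563 CPM and control eTK 1.2 and 1.94 CPM, which overlapped, while heated Col-0 had 15.1 and 15 CPM and control Col-0 1.65 and 1.71 CPM. Its eTK counts were 43 and 20 after heat and 41 and 65 at 22 °C. From 3431487 to 3431648, heated eTK had 1.56 and 1.97 CPM, control eTK 2.38 and 2.45 CPM, heated Col-0 32.6 and 29.7 CPM and control Col-0 3.46 and 3.94 CPM. From 3360954 to 3361040 the responses were -0.31 in eTK and 3.42 in Col-0. Of the 159 regions of the stretch with a Col-0 response of at least 1, 135 were above 0 in eTK, so these 3 were not typical of it.

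Another 14 members of the class opened in eTK and closed in Col-0 were all but without counts in eTK, with a mean under 0.5 CPM over its libraries. The highest in Col-0 was on chromosome 5 from 12738503 to 12739294, with 2 and 7 counts in heated eTK, 0 and 0 in control eTK, 138 and 198 in heated Col-0 and 1697 and 1498 in control Col-0. On chromosome 4 from 4530634 to 4531104 there were 18 and 18 counts in heated eTK, 4 and 14 in control eTK, 50 and 90 in heated Col-0 and 682 and 611 in control Col-0. Both were picked after their values were seen. A response in eTK at such counts depends on the CPM added, and these 14 are carried by the Col-0 values. Without them the class held 1299 members. The same low eTK level held for 836 of all 109575 regions of mean count at least 50, and for 2 members of the other class.

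Tested over all regions with edgeR's quasi-likelihood test, the contrasts that chose the members gave the following background, from which nothing is read. In eTK, heat lowered 3.95% of all regions and raised 3.98%, and 472 of the 848 members closed in eTK were called lower and 761 of the 1313 members opened in eTK were called higher. In Col-0, heat raised 34.4% of all regions and lowered 33.1%, and all 848 and 1313 members were called in the direction of their class. The interaction, the eTK response minus the Col-0 response, was called lower in 33.0% and higher in 25.7% of all regions. Called in both genotypes in opposite directions were 472 and 761 members, beside 1.63% of all regions for lower in eTK with higher in Col-0 and 1.35% for higher in eTK with lower in Col-0. Heat and control libraries did not overlap in plain CPM in 823 of the 848 members closed in eTK, with heat lower in eTK (22.7% of all regions), and in 844 with heat higher in Col-0 (26.9%). Of the 1313 members opened in eTK this held for 1295 with heat higher in eTK (28.0%) and for all 1313 with heat lower in Col-0 (66.5%). Both at once held in 819 members of the class closed in eTK (5.04% of all regions) and in 1295 of the class opened in eTK (16.9%).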

How the data were processed

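ATAC-seq was measured in 40 libraries, of which the 8 Arabidopsis libraries are used here. Per the submitters' processing notes, the tools included Bowtie2 2.4.4, MACS2 2.2.7.1, and featureCounts with Subread 2.0.6, in no stated order. Not given in the sources used here were the genome build, duplicate treatment, read filters and whether peaks were pooled. What the authors deposited are raw read counts per region, without normalization. Region starts and ends are printed as deposited, and genes, exons, introns and UTRs were not assigned.

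The 8 columns were matched to samples by the labels. The rule for members is in the text. All 110628 regions were fitted with edgeR 4.0.16 (limma 3.58.1, R 4.3.3): a mean per group, TMM, quasi-likelihood F test, Benjamini-Hochberg adjustment over all regions, threshold 0.05. The filterByExpr filter removed 0 regions. The Col-0 heat contrast of the fit was tested on simulated counts. Library totals were 19.6 to 38.7 M counts. Named regions were the 8 members of each class with the largest difference between responses, the 4 with the highest mean count and the 2 on either side of a threshold. Members, lists and windows were chosen with earlier results of these data known. Replicate numbers were not treated as pairs in the main fit. Deviations of same-numbered libraries correlated at -0.0184 to 0.0577, which cannot exclude a shared batch. Alternatives were other scalings, DESeq2 1.42.0, pseudocounts, count minimums, fits without 1 library, and the replicate number as a block. Loess offsets for membership and leaving out special regions were chosen after seeing the data.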

Additional observations from a re-analysis of the deposited data

Results flagged for a closer look

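Heat and control libraries did not overlap in either genotype in 819 of the 848 members closed in eTK and opened in Col-0. Heat was lower in eTK and higher in Col-0 there, as in 5.04% of all regions. The reverse held in 1295 of the 1313 members opened in eTK and closed in Col-0, and in 16.9% of all regions. The difference between genotypes was not tested at these regions, because the same 8 libraries chose them.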

How the results depend on the processing

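The number of members depended on centring, the CPM added, the libraries used and the pairing. Without centring, 44 regions were closed in eTK and opened in Col-0 and 4352 opened in eTK and closed in Col-0. With 0.1 CPM added there were 1303 and 2241, and with 2 CPM 175 and 416. When the rule had to hold in each same-numbered pair of libraries there were 258 and 477. Leaving out 1 library at a time gave 786 to 1366 and 1130 to 1823; the class closed in eTK numbered 1274 without eTK control replicate 2 and 1366 without eTK heat replicate 2. TMM, DESeq2 size factors and the other count minimums moved neither count by more than 1.5 times. Under every alternative, 75.5% to 99.8% of the class opened in eTK and 1.46% to 4.55% of the other lay within 2 Mb of a centromere centre. Among named members 2 responses reversed, both in Col-0 with loess offsets, at -0.01 and -0.03.

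The eTK heat response had 8772 calls by edgeR (24238 at an unadjusted p under 0.05), 3452 by DESeq2 and 2417 to 11966 when 1 library was left out, with 2417 without eTK control replicate 1, 3951 without its replicate 2, 5341 without eTK heat replicate 1 and 3985 without its replicate 2. Col-0 had 74671 calls (66628 to 74646 without 1 library) and the interaction 64977 (59510 to 62817). With total count scaling the Col-0 split was 27089 higher and 69157 lower, against 38003 and 36668, and the interaction split 61846 higher and 23919 lower, against 28454 and 36523; this scaling moved the median over all regions to -0.75 in Col-0 and 0.71 in the interaction. DESeq2 split the Col-0 calls 37448 to 28093, the eTK calls 2100 to 1352 and the interaction 21288 to 34636, and loess offsets split the eTK calls 5361 to 3575. With a replicate block the counts were 74687, 9476 and 65049, for Col-0, eTK and the interaction. The causes were not tested.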
